A study of Homo sapiens with 6 samples.

Results

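The genes described here are 49 genes of G2, mitosis and the kinetochore, chosen by name for what their products do, and 48 of them were measured among the 18404 genes on the arrays. Each was taken as the probe set whose only annotated gene symbol is that gene, and where a gene had several, as the probe set with the highest mean over the arrays. BIRC5 was the 1 member with a second probe set. CENPA, the histone H3 variant of centromeres, was the 1 member not measured, since its probe set also carries the symbol of another gene. HCT116, an established line of human colorectal carcinoma cells, had been sorted into a fraction that carries the surface glycoprotein CD133 (CD133+) and a fraction that does not (CD133-). Total RNA of 3 CD133+ and 3 CD133- samples was hybridised to 6 arrays, numbered as repetitions 1, 2 and 3 in each fraction. All groups share the same cell line and no treatment is named, so the fractions differ by the sort alone as far as the labels say. Nothing in the labels ties a repetition to a culture or sort of its own. The p-values of the main fit below rest in part on the scatter left once fraction and repetition are fitted, with 2 residual degrees of freedom. That scatter is how far the gap between the fractions varies among repetitions, and part or all of it may be technical. It does not measure how far separate repetitions would spread. The p-values also rest on a prior variance, which limma estimates from all tested probe sets and towards which it draws that scatter. Signals are on a log2 scale, where a difference of 1 is a factor of 2, and a level is never set against that of another gene.

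Cells prepare for division in G2, when cyclin A and then cyclin B activate the kinase CDK1, and the Aurora, Polo and checkpoint kinases then order the assembly of the spindle and the attachment of kinetochores. The anaphase-promoting complex, a ubiquitin ligase (APC/C), ends mitosis by marking securin and the cyclins for destruction. Transcripts of these genes accumulate in late S phase, G2 and mitosis and are kept low in G1 and in resting cells, and they are commonly read as a sign of proliferation. Many of their promoters hold a cell cycle genes homology region (CHR), the element bound by the MuvB complex with the transcription factors MYBL2 and FOXM1, and CCAAT boxes, which NF-Y binds. In these bulk samples, fewer cells in G2 and mitosis and less RNA per cell cannot be told apart.

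The promoters are described first. The rule that chose the members did not use sequence, but it took known mitotic genes, many of which hold these motifs, as said above. The motif counts therefore say nothing about these arrays, and a link between motifs and array signals was not tested. Promoter windows of 300 bases, 250 before and 50 after a RefSeq transcription start (GRCh38.p14), were matched by symbol for 43 of the 49 members, in 53 windows. AURKA, BIRC5, BUB3, TPX2, TTK and UBE2C had no entry. A CHR was searched as TTTGAA or TTCGAA and a CCAAT box as CCAAT, each on both strands. A CHR match was present in 35 of 53 member windows, or 66%, against 16.4% of all 35116 windows. A CCAAT match was present in 38 member windows, or 71.7%, against 34.6% of all windows, and both motifs in 28, or 52.8%, against 6.38%. Counted by gene, 32 of 43 members had a CHR match in at least 1 window, against 19.5% of all 27305 genes. A match is a description of these letters and not evidence of binding. The 120 bases before the start are shown for 11 members that the results below turn on, or that show how the motifs are placed, 5′ to 3′ in the direction of the gene, with CHR and CCAAT matches in capitals (ATTGG is CCAAT on the other strand, and TTCAAA is TTTGAA on the other strand).
CDK1, chr10:60778358-60778477, plus strand: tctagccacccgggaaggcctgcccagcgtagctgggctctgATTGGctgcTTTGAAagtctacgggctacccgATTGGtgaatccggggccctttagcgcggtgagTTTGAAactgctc
CCNB1, chr5:69167030-69167149, plus strand: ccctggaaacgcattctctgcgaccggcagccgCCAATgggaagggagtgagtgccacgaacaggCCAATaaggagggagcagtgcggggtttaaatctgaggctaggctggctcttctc
CCNB2, chr15:59105026-59105145, plus strand: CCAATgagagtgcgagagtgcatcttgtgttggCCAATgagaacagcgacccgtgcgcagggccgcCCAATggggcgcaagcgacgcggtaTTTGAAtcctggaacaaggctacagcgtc
CDC25B, chr20:3796190-3796309, plus strand: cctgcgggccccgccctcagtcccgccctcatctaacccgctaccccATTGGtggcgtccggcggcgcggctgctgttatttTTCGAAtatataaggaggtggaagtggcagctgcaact
CKS2, chr9:89311075-89311194, plus strand: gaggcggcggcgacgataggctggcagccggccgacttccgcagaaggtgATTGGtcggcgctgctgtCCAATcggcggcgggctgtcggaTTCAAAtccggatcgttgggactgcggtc
PLK1, chr16:23678769-23678888, plus strand: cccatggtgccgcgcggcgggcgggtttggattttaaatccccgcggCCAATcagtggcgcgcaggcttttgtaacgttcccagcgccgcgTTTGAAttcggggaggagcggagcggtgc
BUB1B, chr15:40160949-40161068, plus strand: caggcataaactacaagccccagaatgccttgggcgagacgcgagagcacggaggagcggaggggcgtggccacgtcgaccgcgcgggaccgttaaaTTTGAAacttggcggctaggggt
KIF4A, chrX:70289984-70290103, plus strand: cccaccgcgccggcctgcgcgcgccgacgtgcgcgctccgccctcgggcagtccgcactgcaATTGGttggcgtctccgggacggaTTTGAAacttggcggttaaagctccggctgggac
KIF23, chr15:69414229-69414348, plus strand: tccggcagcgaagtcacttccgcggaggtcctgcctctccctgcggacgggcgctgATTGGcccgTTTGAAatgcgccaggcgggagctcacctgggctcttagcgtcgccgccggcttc
HMMR, chr5:163460512-163460631, plus strand: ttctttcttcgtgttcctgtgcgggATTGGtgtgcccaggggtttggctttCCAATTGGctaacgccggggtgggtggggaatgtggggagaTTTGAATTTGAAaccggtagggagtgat
MKI67, chr10:128126424-128126543, minus strand: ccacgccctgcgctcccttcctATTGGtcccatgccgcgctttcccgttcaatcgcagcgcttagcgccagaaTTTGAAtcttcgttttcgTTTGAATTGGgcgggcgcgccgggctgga

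In the stretches shown, CCNB2 carried 3 CCAAT boxes and then a single CHR that began at base -29, where -1 is the last base before the start. PLK1 and CKS2 each had a CHR that began at that same base. There, CCNB1 had 2 CCAAT boxes and no CHR match, and BUB1B had a CHR and no CCAAT box. In MKI67 the CHR nearest the start shared its last base with a reversed CCAAT box, the 1 overlap between the motifs among all member windows.

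As a check of the labels, PROM1, which encodes CD133, measured 7.59, 7.36 and 7.09 in CD133+ repetitions 1, 2 and 3, and 5.30, 4.46 and 3.97 in the CD133- repetitions. It was higher in CD133+ within every repetition. Of epithelial markers, the adhesion molecule gene EPCAM lay at 10.82 to 11.19 and the keratin gene KRT8 at 11.84 to 12.24. KRT20 and VIL1, also epithelial markers, lay at 3.90 to 4.33 and 4.32 to 4.66. PTPRC, the pan-leukocyte marker, lay at 2.28 to 2.45. Array medians over the 28230 tested probe sets were 5.51 and 5.55 in repetition 1, 5.46 and 5.44 in repetition 2, and 5.60 and 5.59 in repetition 3, CD133+ before CD133-.

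The mitotic genes were lowest in repetition 3, in both fractions. Averaged over the 48 members, the log2 signal was 8.84, 8.83 and 8.18 in CD133+ repetitions 1, 2 and 3, and 8.83, 8.96 and 7.94 in the CD133- repetitions. The 2 arrays of repetition 3 thus lay below the other 4, and the CD133- array was the lower of the pair. All 48 members were lower in repetition 3 than in the mean of repetitions 1 and 2, by 0.24 to 1.33 on the log2 scale, with a median of -0.80. Over all tested probe sets the median of the same difference was 0.04. In limma's fit with fraction and repetition as terms, 44 of 48 members fell in repetition 3 at a Benjamini-Hochberg adjusted p under 0.05 over all probe sets, and 0 rose. That fit called 6.16% of all probe sets lower, and 11.4% of those whose mean signal is above the median, as that of every member is. For 47 of the 48 members both arrays of repetition 3 lay below all 4 others with no overlap, against 13.1% of all probe sets. Of the 14115 probe sets above the median mean signal, 3069 did so. The calls rest on both arrays of repetition 3. Without CD133+ repetition 3 or without CD133- repetition 3, that repetition is 1 array, so only directions are given for those fits. Without CD133- repetition 2 limma called 24 of 48 members lower, and 202 of all 28230 probe sets. With the leading block of 4091 rows that carry no gene included it called 0 members, and 23 of all 32321 rows lower. At an unadjusted p under 0.05 that fit had 46 members, and 9384 of all rows. The direction was lower for all 48 members in these fits, apart from CKS2 at 0.091 without CD133- repetition 3.

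**Figure D1:**
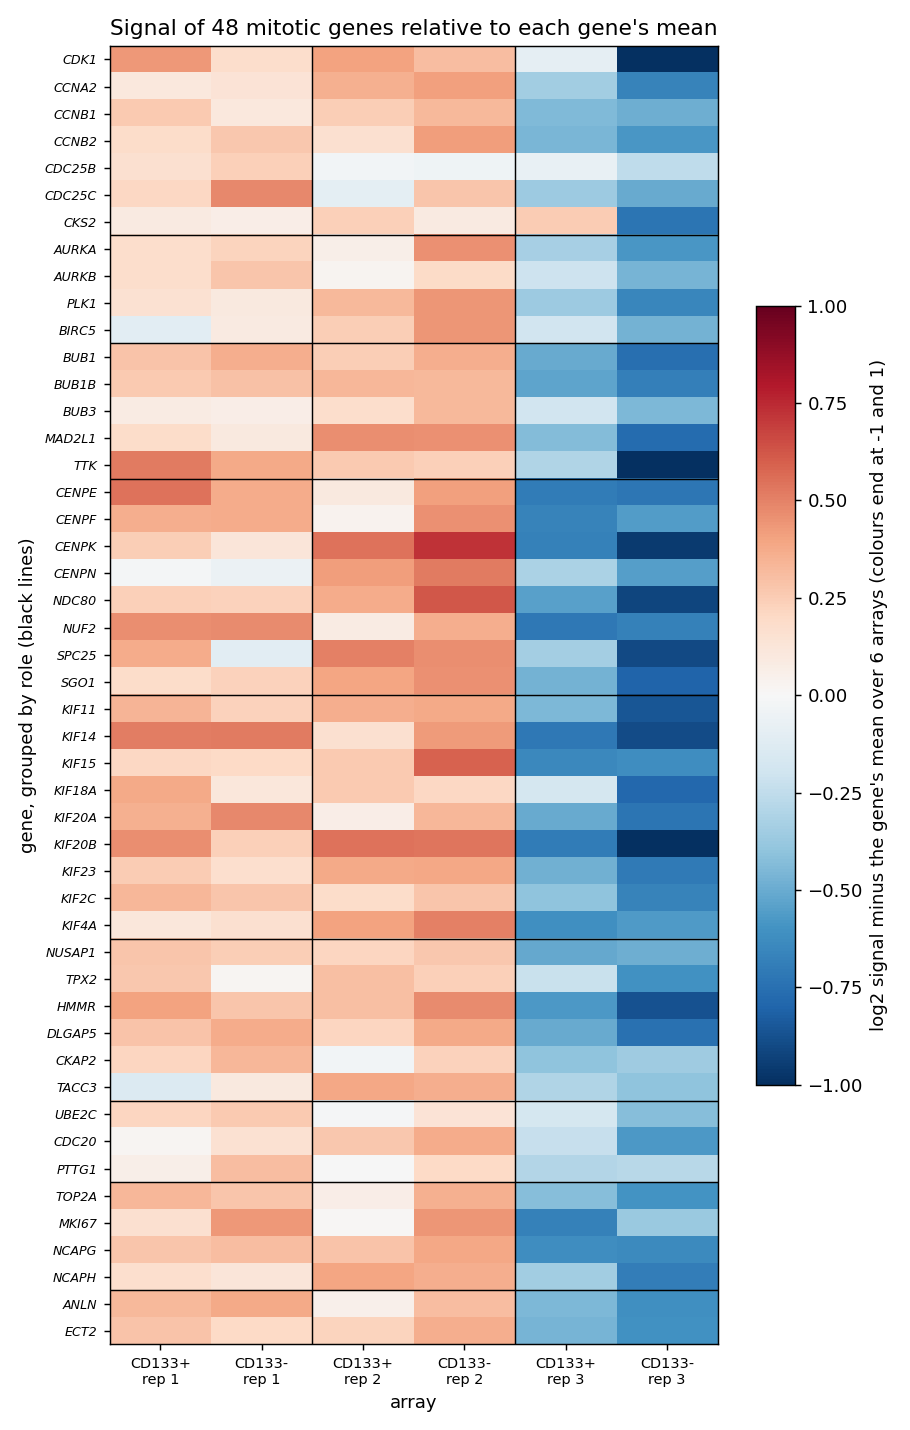
Log2 signal of the 48 measured mitotic genes in each of the 6 arrays, shown as the distance from the gene's own mean over the arrays (red above, blue below); rows are genes in blocks by role and columns are arrays in pairs by repetition. Nearly all cells of the last 2 columns, repetition 3, are blue, with the CD133- array the darker of the pair for most genes; CKS2 is the 1 gene whose CD133+ array of repetition 3 is not below its own mean.

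Among the genes of mitotic entry, 5 of 7 fell in repetition 3. CDK1, the kinase that drives entry into mitosis, measured 8.49, 8.47 and 7.97 in CD133+ repetitions 1, 2 and 3, and 8.23, 8.37 and 6.83 in the CD133- repetitions. Both values of repetition 3 lay below the other 4, the CD133- one by far the lower, and the difference was -0.99 (SE 0.21, limma adjusted p = 0.0394). The cyclin genes fell by similar amounts, CCNB2 by 0.78, CCNA2 by 0.76 and CCNB1 by 0.70 on the log2 scale, and CDC25C, a phosphatase that activates CDK1, fell by 0.65. The members with the least difference belonged here as well. CDC25B, a phosphatase that starts CDK1 activation in G2, measured 9.32, 9.13 and 9.09 in the CD133+ and 9.40, 9.12 and 8.91 in the CD133- repetitions, a difference of -0.24 (SE 0.09, limma adjusted p = 0.137). CKS2, a small subunit that binds CDK1, measured 10.13, 10.28 and 10.30 in the CD133+ repetitions and 10.11, 10.13 and 9.31 in the CD133- repetitions. Its low value was confined to 1 of these 6 arrays, CD133- repetition 3, and its difference of -0.36 (SE 0.20) did not pass (limma adjusted p = 0.260).

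Of the Aurora and Polo kinase genes and survivin, 3 of 4 fell. PLK1, the Polo kinase of spindle assembly and mitotic exit, measured 10.12, 10.28 and 9.60 in the CD133+ and 10.06, 10.40 and 9.31 in the CD133- repetitions. The repetition 3 values did not overlap with the others, and the difference was -0.76 (SE 0.11, limma adjusted p = 0.0212). AURKA, the Aurora kinase of centrosomes and the spindle, fell by 0.68 and AURKB, that of the chromosomal passenger complex, fell by 0.50. BIRC5, which encodes the passenger subunit survivin, differed by -0.50 (limma adjusted p = 0.0543), and by -0.22 on its second, dimmer probe set (adjusted p = 0.365).

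The spindle checkpoint genes, whose products hold back anaphase until kinetochores are attached, fell in 5 of 5 cases. TTK, the kinase that starts checkpoint signalling, measured 8.46, 8.20 and 7.64 in the CD133+ and 8.31, 8.18 and 6.84 in the CD133- repetitions, without overlap between repetition 3 and the rest (-1.05, SE 0.17, limma adjusted p = 0.0245). The checkpoint kinase gene BUB1 fell by 0.94, its relative BUB1B by 0.91 and MAD2L1, whose product inhibits the APC/C activator CDC20, by 0.90. BUB3, which recruits both BUB proteins to kinetochores, measured 10.26, 10.36 and 9.99 in the CD133+ and 10.25, 10.51 and 9.74 in the CD133- repetitions and fell least among the 5, by 0.48 (SE 0.11, limma adjusted p = 0.0441).

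Centromere and kinetochore genes fell in 8 of 8 measured cases, with the lowest median of the 9 roles, -1.0. CENPK, a subunit of the inner kinetochore network, measured 7.39, 7.69 and 6.47 in the CD133+ and 7.27, 7.87 and 6.19 in the CD133- repetitions. Its repetition 3 values stood well below the rest, a difference of -1.23 (SE 0.12, limma adjusted p = 0.0154), or a factor of 2.34. The genes of the NDC80 complex, which grips microtubule ends, fell together, NDC80 by 1.10, NUF2 by 1.04 and SPC25 by 0.93. CENPE, a kinetochore motor, fell by 1.06, SGO1, the shugoshin that protects centromeric cohesion, by 0.96, CENPF, a large outer kinetochore protein, by 0.92 and CENPN, a reader of centromeric nucleosomes, by 0.65.

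Mitotic kinesin genes fell in 9 of 9 cases, with a median of -0.93. KIF20B, a kinesin of late mitosis, measured 7.34, 7.42 and 6.18 in the CD133+ and 7.12, 7.42 and 5.81 in the CD133- repetitions. At -1.33 (SE 0.10, limma adjusted p = 0.0154), a factor of 2.52, it had the largest fall of the 48 members. KIF14, a kinesin of cytokinesis, fell by 1.21. KIF11, the motor that pushes spindle poles apart, fell by 0.98 and KIF15, which shares that work, by 0.95. The central spindle motors KIF20A, KIF23 and KIF4A fell by 0.93, 0.89 and 0.89. KIF2C, a microtubule depolymerase of centromeres, fell by 0.80, and KIF18A, which shortens kinetochore microtubules, by 0.72.

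Spindle assembly factors fell in 6 of 6 cases. HMMR, a microtubule-associated protein of spindle poles, measured 8.23, 8.13 and 7.25 in the CD133+ and 8.11, 8.30 and 6.96 in the CD133- repetitions, so that repetition 3 stood apart from all other arrays (-1.09, SE 0.12, limma adjusted p = 0.0167). DLGAP5 and NUSAP1, both of which bundle or stabilise spindle microtubules, fell by 0.94 and 0.75. TPX2, the activator of Aurora A, fell by 0.62, CKAP2, a spindle pole protein, by 0.57 and TACC3, of the bridges between spindle fibres, by 0.53.

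Differences were smaller among the 3 genes of mitotic exit, with a median of -0.45. CDC20, the APC/C activator of anaphase, measured 10.29, 10.54 and 10.04 in the CD133+ and 10.42, 10.64 and 9.70 in the CD133- repetitions and fell by 0.60 (SE 0.12, limma adjusted p = 0.0372). PTTG1, which encodes securin, measured 9.19, 9.13 and 8.84 in the CD133+ and 9.44, 9.32 and 8.85 in the CD133- repetitions and fell by 0.43 (SE 0.09, limma adjusted p = 0.0414). UBE2C, the ubiquitin-conjugating enzyme of the APC/C, measured 9.25, 9.03 and 8.86 in the CD133+ and 9.30, 9.17 and 8.61 in the CD133- repetitions. Its arrays did not overlap either, but its difference of -0.45 (SE 0.11) missed the threshold (limma adjusted p = 0.0501).

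The remaining 6 members all fell. NCAPG, a condensin subunit, measured 9.98, 9.99 and 9.08 in the CD133+ and 10.01, 10.09 and 9.06 in the CD133- repetitions, with nearly equal falls in the fractions (-0.94, SE 0.09, limma adjusted p = 0.0154). MKI67, which encodes the proliferation marker Ki-67, fell by 0.79, the condensin gene NCAPH by 0.78 and TOP2A, the topoisomerase that untangles sister chromatids, by 0.77. ECT2, the activator of RhoA in cytokinesis, measured 9.89, 9.82 and 9.14 in the CD133+ and 9.80, 9.97 and 9.0 in the CD133- repetitions and fell by 0.80 (SE 0.10, limma adjusted p = 0.0175). ANLN, a scaffold of the contractile ring, fell by 0.80 as well. The 31 measured members with a CHR match in a promoter window had a median difference of -0.90 and the 11 without one had -0.76, with overlapping ranges of -1.33 to -0.24 and -1.23 to -0.43. For CCAAT the order was the other way, with -0.79 in the 32 members with a match and -0.93 in the 10 without, and ranges of -1.33 to -0.24 and -1.10 to -0.53.

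**Figure D2:**
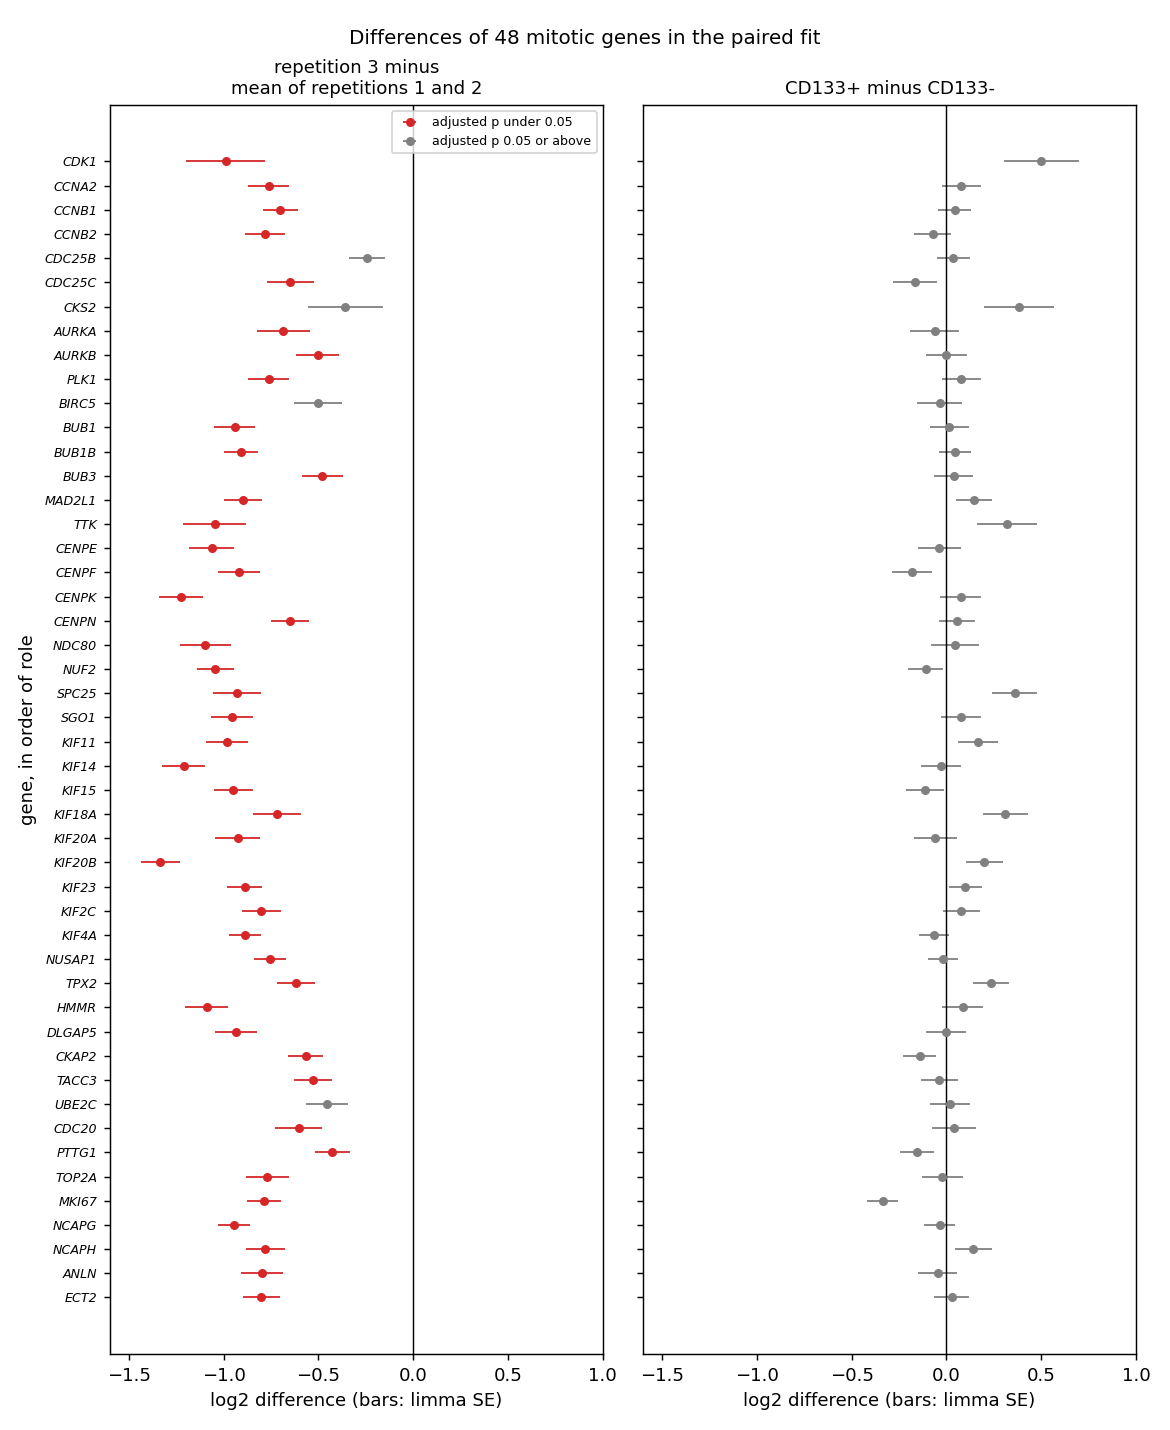
Log2 differences of the 48 members with limma's standard error, genes in order of role from top to bottom. On the left, repetition 3 minus the mean of repetitions 1 and 2, all points lie below 0 and 44 are past the threshold (red); on the right, CD133+ minus CD133-, points lie on either side of 0 and none is red.

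Between the fractions, the mitotic genes showed no common direction. CD133+ was above CD133- for 27 members and below for 21, with a median difference of 0.03 and a range of -0.34 to 0.50. The median over all tested probe sets was -0.0020. With repetition as a block, limma called 0 of 48 members at an adjusted p under 0.05, and 0.298% of all probe sets. At an unadjusted p under 0.05 it found 5 members, or 10.4%, near the 11.3% of all probe sets. Without the block it called 0 members as well, and 0.00354% of all probe sets. At an unadjusted p under 0.05 the fit without the block had 0 members, and 974 of all 28230 probe sets. CD133+ was higher in all 3 repetitions for 9 members and lower in all 3 for 6, against 16.8% of all probe sets in each direction.

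MKI67 had the smallest p of the members for this difference. It measured 10.03, 9.88 and 9.19 in the CD133+ and 10.30, 10.31 and 9.49 in the CD133- repetitions, or 9.70 ± 0.45 against 10.03 ± 0.47 (SD, n = 3 each). The arrays of the fractions overlapped, since CD133- repetition 3 lay below CD133+ repetitions 1 and 2, but CD133+ was the lower within every repetition, by 0.27, 0.43 and 0.31. The difference of -0.34 (SE 0.08) did not pass (limma adjusted p = 0.215, unadjusted p = 0.00575). CENPF measured 9.53, 9.20 and 8.51 in the CD133+ and 9.54, 9.63 and 8.61 in the CD133- repetitions, a difference of -0.18 (SE 0.10, limma adjusted p = 0.582). PTTG1, CKAP2, NUF2 and KIF4A were likewise lower in CD133+ within every repetition, with differences of -0.16, -0.14, -0.11 and -0.07 that did not pass.

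The other members of small p were higher in CD133+. SPC25, a subunit of the NDC80 complex, measured 7.51, 7.65 and 6.80 in the CD133+ and 7.04, 7.61 and 6.24 in the CD133- repetitions. CD133+ was higher within each repetition, though by only 0.04 in repetition 2, and the difference was 0.36 (SE 0.12, limma adjusted p = 0.348). KIF18A measured 8.67, 8.56 and 8.12 in the CD133+ and 8.41, 8.50 and 7.51 in the CD133- repetitions (0.31, SE 0.12, limma adjusted p = 0.407). TPX2 measured 10.13, 10.16 and 9.64 in the CD133+ and 9.88, 10.10 and 9.25 in the CD133- repetitions (0.23, SE 0.09, limma adjusted p = 0.427). Each of these genes had its smallest gap in repetition 2 and its largest in repetition 3. CDK1 differed by 0.50 (SE 0.20, limma adjusted p = 0.417), CKS2 by 0.38 (adjusted p = 0.508), TTK by 0.32 (0.513) and KIF20B by 0.20 (0.513). CKS2 was the 1 member whose fractions did not overlap, against 7.78% of all probe sets. Its fractions all but met, at 10.132 in CD133+ repetition 1 and 10.131 in CD133- repetition 2.

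Within single repetitions the balance of directions differed. In repetition 1, 24 members were higher in CD133+ and 24 lower, with a median difference of 0.0008. In repetition 2, 36 of 48 were lower in CD133+, with a median of -0.12, where 47.3% of all probe sets were lower. In repetition 3, 40 of 48 were higher in CD133+, with a median of 0.24, where 49.8% of all probe sets were higher. The gaps in repetition 3 were widest for CDK1 at 1.14, CKS2 at 0.98 and TTK at 0.80, and the CD133- array of repetition 3 was the lowest of all 6 for 40 members. The repetition 3 values lay further below repetitions 1 and 2 in CD133- than in CD133+ for 47 of 48 members. The medians were -0.94 and -0.69, and 50.1% of all probe sets did so. This count also takes in the gaps of repetitions 1 and 2. It thus includes members such as MKI67, where CD133+ was the lower in repetition 3. With 1 array per fraction and repetition these differences have no test.

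**Figure D3:**
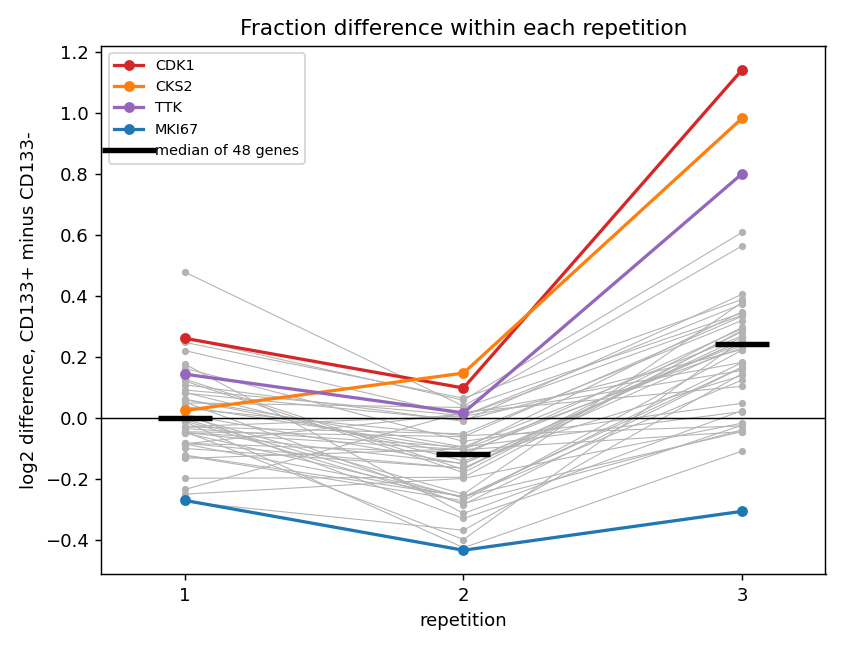
Log2 difference CD133+ minus CD133- within each repetition for the 48 members; a line joins the values of 1 gene, and repetitions have no order. The black bars are the medians, 0.0008, -0.12 and 0.24; CDK1, CKS2 and TTK reach 1.14, 0.98 and 0.80 in repetition 3, and MKI67 stays below 0 in all 3.

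Repetition 2 held the highest mitotic signal for many of the members. In the same fit 29 of 48 rose in repetition 2 against the others, with a median of 0.44, where 8.83% of all probe sets were called higher. Of the 14115 probe sets whose mean signal is above the median, as that of every member is, 2316 were called higher. By role the risen genes were 5 of 6 spindle assembly factors, 6 of 9 kinesins, 5 of 8 centromere and kinetochore genes, 3 of 4 genes of chromosome structure and Ki-67, 3 of 5 checkpoint genes, 3 of 7 entry genes, 2 of 4 Aurora and Polo kinase and survivin genes, 1 of 3 exit genes and 1 of 2 cytokinesis genes. CENPK rose most, by 0.95 (SE 0.12, limma adjusted p = 0.0104), then KIF20B by 0.81 and NDC80 by 0.74, and CDC25B at -0.05 was the 1 member not higher. Repetition 1 had a median of 0.35 with 0 members called, where 0.244% of all probe sets were called higher. At an unadjusted limma p under 0.05 there were 33 members, or 68.8%, against 15% of all probe sets. For 19 members both arrays of repetition 2 lay above all 4 others, against 16.9% of all probe sets and 3898 of the 14115 above the median mean signal. For 7, namely KIF14, TTK, NUF2, KIF20A, ANLN, UBE2C and CDC25B, both arrays of repetition 1 did, against 6.76% of all and 1209 of the 14115. These contrasts share arrays with that of repetition 3, whose low values are part of both. The count for repetition 2 was 12 without CD133+ repetition 1, where 1435 of all 28230 probe sets were called higher. Without CD133- repetition 1 it was 15 (1229 of all), and without CD133- repetition 3 it was 8 (1017 of all). After repeated quantile normalization it was 13 (1688 of all). These calls depend on both arrays of repetition 2, since without either of them repetition 2 is 1 array.

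Repetitions 1 and 2 were therefore set against each other directly, a contrast added after the values had been seen. Limma called 0 of 48 members, against 4.74% of all probe sets in either direction, and 6 members, or 12.5%, had an unadjusted p under 0.05 against 22.9% of all probe sets, with a median difference of 0.05. The kinetochore gene CENPN had the smallest p. It measured 8.96 and 9.06 in repetition 2 against 8.52 and 8.49 in repetition 1 (0.50, SE 0.12, limma adjusted p = 0.0626). CENPK differed by 0.45 and TACC3 by 0.40 in the same direction, whereas CDC25C at -0.25, NUF2 at -0.24 and CDC25B at -0.24 stood higher in repetition 1, and none of these passed. With repetition 3 set against each of the others alone, also added later, 21 members fell against repetition 1 and 42 against repetition 2, where 0.521% and 10.9% of all probe sets were called lower. The medians were -0.78 and -0.87.

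Mitotic genes outside the 48 were taken as 4 lists of 100 measured genes in all. Against the mean of the other repetitions, 73 of the 100 fell in repetition 3 and 0 rose, with a median of -0.66, and 98 were lower. Limma called 6.16% of all probe sets lower in that contrast, and 11.4% of those whose mean signal is above the median. Against repetition 1 alone 19 of the 100 fell (median -0.49), and against repetition 2 alone 78 did (median -0.70). The shares of all probe sets were 0.521% and 10.9%. The list of other G2, spindle and cytokinesis genes had 31 of 36 fallen and a median of -0.72. Its members of smallest p were SHCBP1, a protein of the midbody, at -1.10 and PLK4, the kinase of centriole duplication, at -1.21. Other centromere and kinetochore genes had 21 of 30 fallen (median -0.66), led by SPDL1, which recruits dynein to kinetochores, at -1.04 and the inner kinetochore gene CENPI at -0.82. Other condensin and cohesin genes had 14 of 18 fallen (median -0.61), led by the shugoshin gene SGO2 at -0.98 and the condensin gene NCAPG2 at -0.87. APC/C subunits and cofactors, which are needed through much of the cycle, had 7 of 16 fallen (median -0.36), with FBXO5, an inhibitor of the APC/C, at -0.75 and ANAPC10 at -0.66. Against repetition 1 alone these lists had, in the order given, 10, 5, 4 and 0 genes called lower. Between the fractions limma called 0 of the 100. At an unadjusted p under 0.05 there were 13, or 13%, near the 11.3% of all probe sets. PDS5B, a cohesin regulator, at 0.53 and SMC2, a condensin core subunit, at -0.55 had the smallest p (limma adjusted p = 0.0788 and 0.133).

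Of 23 upstream regulators of mitotic genes, 12 fell in repetition 3 and 0 rose, with a median of -0.39. Limma called 6.16% of all probe sets lower there. Against repetition 1 alone 0 of the 23 were called lower (median -0.21). Against repetition 2 alone 14 were called lower and 1 higher (median -0.56). The shares of all probe sets called lower in these contrasts were 0.521% and 10.9%. FOXM1, the forkhead activator of G2 genes, measured 8.84, 9.30 and 8.55 in the CD133+ and 8.94, 9.31 and 8.31 in the CD133- repetitions and fell by 0.66 (SE 0.10, limma adjusted p = 0.0229). MYBL2, the MuvB partner known as B-MYB, measured 8.37, 8.92 and 8.22 in the CD133+ and 8.34, 8.83 and 7.82 in the CD133- repetitions and fell by 0.60 (limma adjusted p = 0.0299). Both were highest in repetition 2 and lowest in repetition 3. Among the E2F genes, E2F8, E2F7, E2F2 and E2F6 fell by 0.73, 0.62, 0.56 and 0.39, whereas E2F3 at -0.29, E2F4 at -0.23, E2F1 at -0.10 and E2F5 at 0.20 did not pass. Of the 23, limma called 0 between the fractions. At an unadjusted p under 0.05 there were 4, or 17.4%, against 11.3% of all probe sets. FOXM1 differed by 0.05 and MYBL2 by 0.18 (limma adjusted p = 0.906 and 0.585).

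S phase genes, whose products copy DNA, were also lowest in repetition 3. There 24 of 28 fell with a median of -0.57, against 44 of 48 and -0.80 for the mitotic genes and 6.16% of all probe sets. Against repetition 1 alone 1 of 28 S phase genes fell (median -0.28), and against repetition 2 alone 26 did (median -0.82). The mitotic genes had 21 and 42 of 48, with medians of -0.78 and -0.87, and all probe sets 0.521% and 10.9%. In repetition 2 against the others 27 of 28 rose with a median of 0.69, against 29 of 48 and 0.44. Limma called 8.83% of all probe sets higher in that contrast. In repetition 2 against repetition 1 alone, 14 of 28 S phase genes and 0 of 48 mitotic genes rose, where 2.56% of all probe sets did, with medians of 0.55 and 0.05. The difference between the lists was not tested. Genes of G1 arrest and cell cycle exit had a median of 0.10 in repetition 3, with 3 of 18 higher and 0 lower past the threshold, where 4.16% of all probe sets were called higher. These were SESN3, a stress-induced regulator of mTORC1, at 0.56, CDKN1C, a cyclin-dependent kinase inhibitor, at 0.49 and CCNG1, a p53 target, at 0.42. CDKN1A, which encodes the inhibitor p21, measured 7.51, 6.97 and 7.33 in the CD133+ and 7.43, 7.02 and 7.19 in the CD133- repetitions. It did not differ past the threshold in repetition 3 (0.03, limma adjusted p = 0.860), and it fell by 0.37 in repetition 2 (adjusted p = 0.0413).

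**Figure D4:**
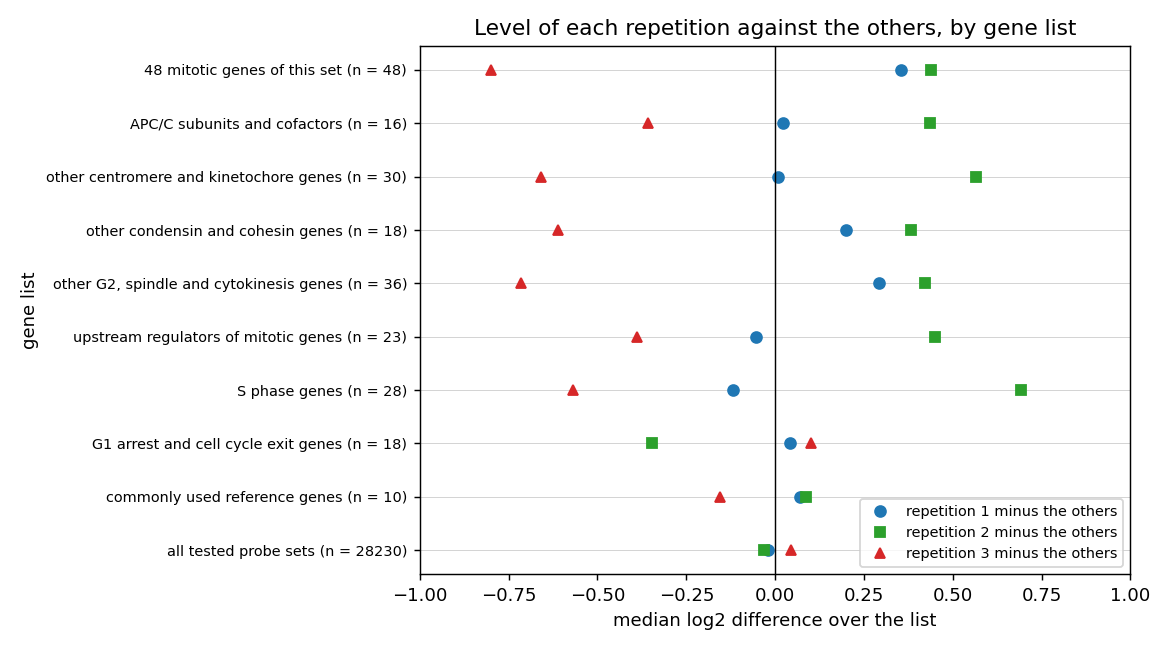
Median log2 difference of each repetition against the mean of the other 2, over 10 lists of genes with the number measured in brackets. The red triangle of repetition 3 lies lowest for the 48 mitotic genes, at -0.80, and near 0 for all tested probe sets, at 0.04; the green square of repetition 2 lies highest for the S phase genes, at 0.69.

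Some genes of other lists also passed in repetition 3, where limma called 6.16% of all probe sets lower and 4.16% higher. The 10 measured reference genes had a median of -0.15 in repetition 3, and 2 of them fell, HPRT1 by 0.43 and TFRC, the transferrin receptor gene, by 0.54. Of 9 leukocyte markers 2 rose in repetition 3, CD14 by 0.47 and CD68 by 0.49, while PTPRC differed by 0.05, and the mean over the list was 4.24 and 4.35 in repetition 3 against 4.04 to 4.23 in the other arrays. Of the 10 fibroblast and 8 endothelial markers 0 passed (limma). At an unadjusted p under 0.05 there were 2 and 3, or 20% and 37.5%, against 31.9% of all probe sets. Of the 10 colon epithelial markers 1 rose, ELF3, an epithelial transcription factor, by 0.74. The shares at an unadjusted p under 0.05 were 50% of reference genes, 22.2% of leukocyte markers and 30% of epithelial markers, beside the same 31.9%. The part of these shifts in the mitotic result was not tested. Centring each array on its median moved the median difference of all probe sets in repetition 3 from 0.04 to -0.06 and that of the members from -0.80 to -0.90, and turned the share of higher calls among all calls from 40.3% to 13.8%. In repetition 2 the same centring turned that share from 60.3% to 83.6%. After it, 46 of 48 members fell in repetition 3 and 34 rose in repetition 2.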

How the data were processed

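Total RNA of the 6 samples was labelled and hybridised, and the deposited table holds log2 signals that the authors computed by Robust Multichip Average (RMA), per the labels; no version was found in the sources used. A U133 array is named in the design text, but the probe set numbers are those of a whole-transcript Gene ST array, whose annotation named the genes. Of 32321 rows, the 4091 that stand before the first row with a gene symbol were left out, whereas later rows without a symbol were kept. The calls in repetition 3 depend on this choice, with 44 members lower without those rows and 0 with them. Of the 28230 probe sets tested, 19158 had 1 gene symbol, 1388 several and 7684 none, and only those with 1 named a gene. The number of arrays limits the precision.

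All 6 arrays entered 1 fit in limma 3.58.1 (R 4.3.3; lmFit, then eBayes) with terms for fraction and repetition. Benjamini-Hochberg adjustment ran over all tested probe sets, at 0.05. Repetition was a block because the arrays are paired by the repetition numbers in the labels. Deviations of same-numbered arrays from their fraction means correlated at 0.447, 0.616 and 0.589. Values in all arrays are given for PROM1, for the 10 members of smallest p between fractions, for the member of largest difference in repetition 3 in each role, for the 5 of smallest, and for FOXM1, MYBL2 and CDKN1A. From other lists the 2 of smallest p and the E2F genes are named, and further genes were chosen after their values were seen. Members, lists and tests were chosen with earlier results of these data known. Alternatives were another normalization, centring, filters, probe set rules, the prior variance, no block, and leaving out each array. The fits were tested on simulated data.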

Additional observations from a re-analysis of the deposited data

How the results depend on the processing

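The fraction comparison called 0 members under all alternatives run. Without the replicate block 1 probe set passed in all, against 84 with it. Over all probe sets the count was 403 with only probe sets above the median mean signal, 347 with a trend in the prior variance, 216 with only probe sets of 1 gene symbol, 0 with all rows of the table tested (3051 at an unadjusted limma p under 0.05), and 0 to 43 with an array left out. Leaving out an array of a pair removes the whole pair from this comparison. The members' median of 0.03 ranged from -0.07 to 0.10 when arrays were left out.

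For repetition 3, 44 members fell, against 37 to 46 under the other planned settings, with exceptions. It was 0 with all rows tested, 0 to 40 with an array left out, and 21 against repetition 1 alone, the last added after the data were seen. The members' median ranged from -0.94 to -0.67. CKS2 ranged from -0.81 without CD133+ repetition 3 to 0.091, a reversal, without CD133- repetition 3 (limma adjusted p = 0.715). For repetition 2, 29 members rose, against 13 after repeated quantile normalization, 13 with all rows tested and 0 to 25 with an array left out. For repetition 1, 0 rose, against 18 with only probe sets above the median mean signal, 16 with the trend and 8 with only probe sets of 1 symbol, and its median of 0.35 ranged from 0.27 to 0.43 with an array left out. The cause of these changes was not tested.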
